A study of Mus musculus with 14 samples.

Results

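The 8 genes described here are targets and feedback regulators of cytokine signalling through the transcription factor STAT5: Cish, Socs1, Socs2, Socs3, Il2ra, Pim1, Pim2 and Osm. They were chosen by name, with earlier results of these data known. Shares of the 8 set beside those of all genes are thus descriptions and no test. Matched to the Ensembl identifiers of the count table, they are 8 of 46078 genes, and all 8 had enough reads to be tested. Interleukin 15 (IL-15) binds receptors on natural killer (NK) cells and on their relatives, the type 1 innate lymphoid cells (ILC1s), and activates the JAK1 and JAK3 kinases, which phosphorylate STAT5. STAT5 then enters the nucleus and switches on survival and growth genes, among them the Pim kinases and the IL-2 receptor chain Il2ra, together with Cish and the Socs genes, whose proteins bind activated receptors or kinases and shut the signal down. The RNA level of these feedback genes is therefore commonly read as a record of recent cytokine signalling.

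Bulk RNA-seq libraries were made from lymphocytes sorted from the bone marrow of C57BL/6 mice aged 8 weeks, with 2000 cells per sample. Conditional knockout mice, called cKO, had the genotype Vav-Cre;Il-15-flox/KO, with 1 floxed and 1 knockout copy of Il15. Control mice were Il-15-flox/KO without Vav-Cre, so every mouse of the study carried a knockout copy. The Vav promoter drives Cre in the blood-forming lineage, and cells outside it keep their floxed copy. Both gates took NK1.1+ cells and left out CD3+ cells. Immature NK cells (iNK) were DX5+ and CD27+ and lacked IL-7Ra and CD11b, while immature ILC1s (iILC1) were IL-7Ra+ and CD49a+. There were 4 cKO iNK, 3 control iNK, 4 cKO iILC1 and 3 control iILC1 libraries. Whether each library of a group stands for its own mouse is not stated in the labels. The p-values thus cover the spread among these libraries, which may be technical.

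Total counts ran from 6254844 to 12572326 in cKO iNK, 6238016 to 8013984 in control iNK, 5478641 to 10308693 in cKO iILC1 and 3512796 to 4933284 in control iILC1 libraries. Levels are TMM-normalised CPM, which bring libraries to a common size and correct for differences in RNA composition. Control iNK replicate 1 and cKO iILC1 replicate 1 had the smallest TMM factors (0.801 and 0.803) and the least reads on 1318 odour and pheromone receptor genes, which lymphocytes should not use (1358 and 1539 CPM). Control iNK replicate 2 was close to them (0.829 and 1567 CPM), and the other 11 libraries held 1686 to 2988 CPM on these genes. Results are also given without the lowest 2 libraries, and leaving out all 3 together was not tried. The gate markers followed the labels: Il7r averaged 646 and 408 CPM in cKO and control iILC1, against 22.4 and 8.37 CPM in cKO and control iNK, and Eomes, a transcription factor of NK cells, averaged 94.3 and 132 CPM in cKO and control iILC1, against 804 and 732 CPM in cKO and control iNK. Cd3e, whose protein both gates exclude, averaged 27.5 and 64.04 CPM in cKO and control iILC1, against 3.66 and 3.31 CPM in cKO and control iNK. The targeted gene Il15 ranged from 8.58 to 12.3 CPM in cKO iNK and 8.16 to 11.1 CPM in control iNK, and from 11.2 to 24.9 CPM in cKO iILC1 and 11.7 to 13.8 CPM in control iILC1. A count per gene does not resolve the floxed exons and both genotypes carry a knockout allele, so Il15 checks neither the deletion nor the labels.

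RefSeq promoter windows (GRCm38.p6, 250 bases before and 50 after the start site) were at hand for 6 of the 8 genes, in 7 windows. They were searched for TTCNNNGAA, the letters that STAT5 binds in its simplest form, which read the same on either strand. The motif occurred in 8.3% of 32851 windows of this length, and 2 or more copies in 0.457%. The window of Cish held 2 copies, that of Socs3 held 1, and the windows of Socs1, Il2ra, Pim1 (2 start sites) and Pim2 held none. A form with 1 more free base in its centre, found in 6.95% of windows, was in none of the 7. The stretches of 30 bases around the matches are shown because Cish is the gene with the largest change below. Capitals mark the motif, and both stretches read 5′ to 3′ on the gene's own strand.
Cish, chr9:107296654-107296683, plus strand: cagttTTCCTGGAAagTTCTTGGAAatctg
Socs3, chr11:117969501-117969530, minus strand: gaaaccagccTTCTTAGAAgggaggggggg
The copies in Cish begin at bases 1 and 12 counted from the RefSeq start site, inside an exon that the count table lists for the gene. The copy in Socs3 begins 154 bases upstream of the RefSeq start, outside the exons of the table. A match of letters is a description of the sequence and no evidence of binding, and a window without one says nothing about sites elsewhere.

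Setting cKO beside control iNK cells asks how the genes behave in mice bred to lose Il15 in the blood lineage. Cish and Socs2 fell in cKO iNK cells, 2 of the 8 genes, at an adjusted p below 0.05 in edgeR's quasi-likelihood test over 26990 genes. Over all genes tested, 0.252% were called lower and 0.408% in either direction. All 8 estimates lay below 0, from −1.52 to −0.18 on the log2 scale with a median of −0.89, whereas 44.9% of all genes lay below 0 and their median was 0.06. The libraries of both genotypes did not overlap for 5 of the 8 (Cish, Socs1, Socs2, Pim2 and Osm), each time with cKO below control, against 8.84% of all genes in either direction and 4.75% with cKO below.

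Cish encodes CIS, an inhibitor of cytokine receptors that in mouse NK cells restrains the response to IL-15 (ENSMUSG00000032578, mm10 chromosome 9, 107296026 to 107302784, plus strand). It stood at 6.73, 6.79, 6.76 and 7.15 CPM in the cKO iNK libraries, against 15.0, 17.2 and 27.2 CPM in the control iNK libraries. Every cKO library lay below the lowest control library, and the cKO libraries were nearly level with each other. The mean was 6.86 ± 0.198 CPM in cKO (SD, n = 4) and 19.8 ± 6.5 CPM in control (SD, n = 3), 2.88-fold lower in cKO. On the log2 scale this is −1.52 (SE 0.253), with an adjusted p of 0.00143 in edgeR's quasi-likelihood test. The 4 cKO libraries differed by a coefficient of variation of 2.89%, below the 10.9% to 15.1% that counting error alone gives for their 84 to 44 reads. Per kilobase of exon, Cish was low in both groups, at 1.07 CPM in cKO and 3.08 CPM in control iNK. The odour and pheromone receptor genes had 95th percentiles of 4.43 and 3.54 CPM per kilobase there. A fit with the reads on these receptor genes as a covariate was among 7 other settings, which included DESeq2. All 7 called Cish, with estimates from −1.69 to −1.5 and an adjusted p of at most 0.00418 in edgeR or DESeq2. How much of the Cish level itself is such background was not tested. The call held in each of the 7 fits that left out 1 iNK library, with adjusted p from 0.00162 to 0.0388.

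Socs2 encodes a member of the same family that is best known in mice for limiting growth hormone signalling, which also runs through STAT5 (ENSMUSG00000020027, chromosome 10, 95385362 to 95417180, minus strand). It stood at 15.0, 11.7, 11.3 and 10.7 CPM in cKO iNK, against 22.3, 26.5 and 32.0 CPM in control iNK, again without overlap. The mean was 12.2 ± 1.92 CPM in cKO (SD, n = 4) and 26.9 ± 4.84 CPM in control (SD, n = 3), a log2 difference of −1.15 (SE 0.224, edgeR adjusted p = 0.00992). Leaving out control iNK replicate 3 or cKO iNK replicate 3 ended this call, with adjusted p-values of 0.0905 and 0.0521 in edgeR. Without the 2 libraries lowest in receptor reads, the estimates were −1.69 for Cish and −1.27 for Socs2, and both were still called.

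**Figure D1:**
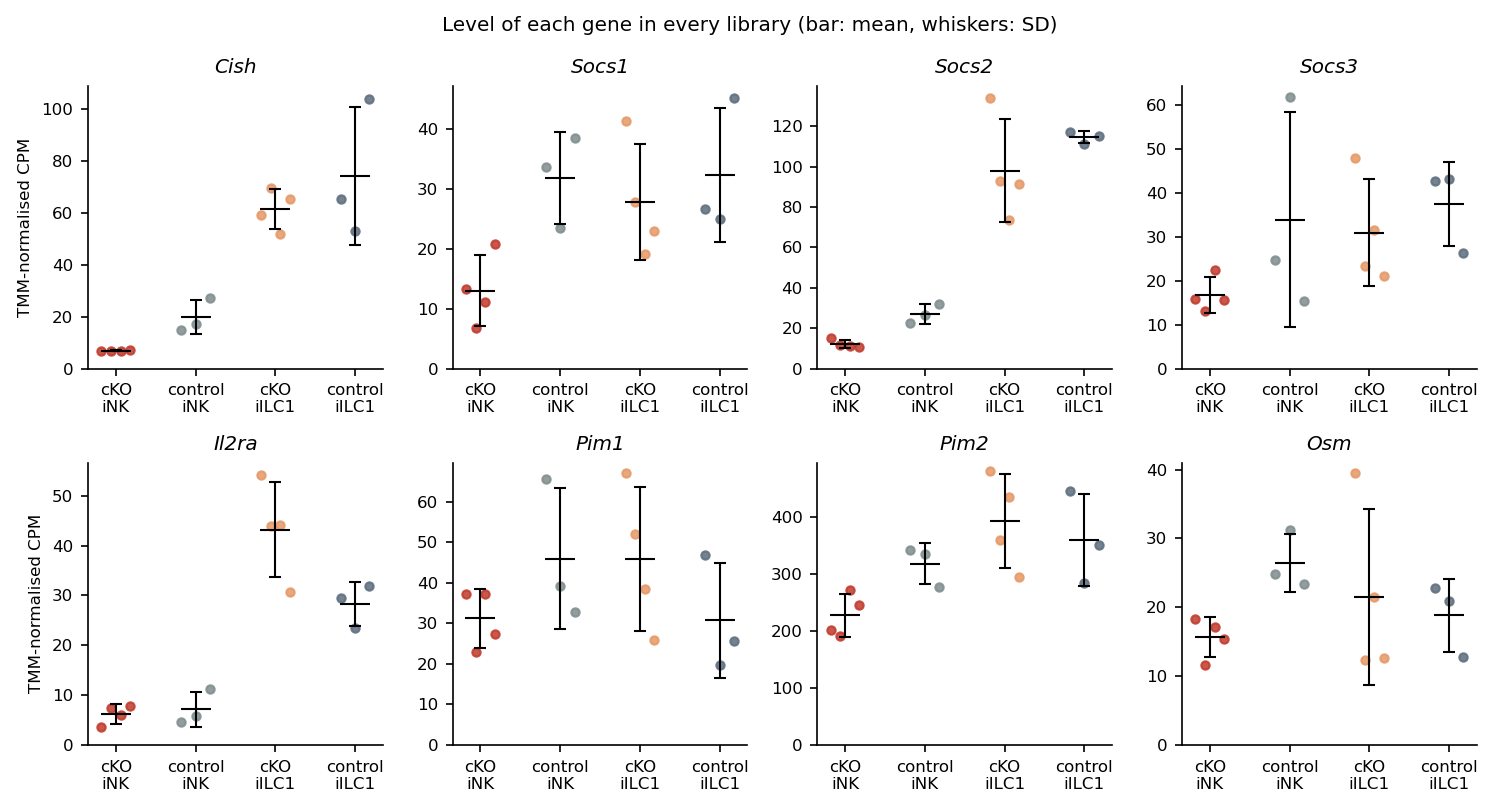
TMM-normalised CPM (y axes, from 0) of the 8 genes in the 14 libraries. Each point is 1 library, bars are group means and whiskers are SDs (n = 4 cKO, n = 3 control per cell type). Cish and Socs2 are lowest in cKO iNK and at least 51.9 and 73.5 CPM in every iILC1 library, while Pim2 lies between 191 and 481 CPM in all libraries.

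Socs1 encodes an inhibitor of JAK kinases that restrains interferon gamma and common gamma chain cytokines (ENSMUSG00000038037, chromosome 16, 10783808 to 10785536, minus strand). Its values were 13.3, 6.79, 11.05 and 20.9 CPM in cKO iNK, against 33.6, 23.4 and 38.6 CPM in control iNK. The groups did not overlap, with cKO iNK replicate 4 closest to the control libraries. The log2 fold change was −1.28 (SE 0.309), and the adjusted p of 0.0634 in edgeR missed the threshold. This call hung on the settings and on single libraries. Of the 7 other settings apart from blocking and from leaving out 1 library, 6 called Socs1 lower, with DESeq2 giving an adjusted p = 0.0163. The remaining one, without the 2 libraries lowest in receptor reads, gave an adjusted p = 0.0601 in edgeR. Of the 7 fits that left out 1 iNK library, 6 did not call Socs1, with adjusted p of up to 0.211 in edgeR.

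Socs3 encodes an inhibitor that acts mainly on receptors of the IL-6 family (ENSMUSG00000053113, chromosome 11, 117966079 to 117970047, minus strand). It stood at 15.8, 13.03, 22.5 and 15.6 CPM in cKO iNK, against 24.7, 61.7 and 15.4 CPM in control iNK. Control iNK replicate 2 was far above the other libraries and control iNK replicate 3 was within the cKO range, so the groups overlapped. Its estimate of −1.02 on the log2 scale (SE 0.337, edgeR adjusted p = 0.307) shrank to −0.24 in the fit without control iNK replicate 2.

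Of the target genes that are no inhibitors, none passed in iNK cells. Osm encodes oncostatin M, a cytokine of the IL-6 family whose gene is a STAT5 target in mouse blood cells (ENSMUSG00000058755, chromosome 11, 4236420 to 4241026, plus strand). It stood at 18.4, 11.7, 17.2 and 15.4 CPM in cKO iNK, against 24.8, 31.3 and 23.4 CPM in control iNK, without overlap (log2 fold change −0.76, SE 0.314, adjusted p = 0.516 in edgeR). Pim2 encodes a serine/threonine kinase that promotes survival and protein synthesis (ENSMUSG00000031155, chromosome X, 7878262 to 7883432, plus strand). It was at 203, 191, 273 and 245 CPM in cKO iNK, against 342, 336 and 277 CPM in control iNK, so that the highest cKO library lay just below the lowest control library (log2 fold change −0.48, SE 0.226, adjusted p = 0.613 in edgeR). Its relative Pim1 (ENSMUSG00000024014, chromosome 17, 29490812 to 29496111, plus strand) was at 37.3, 22.9, 37.2 and 27.4 CPM in cKO iNK, against 65.6, 39.3 and 32.8 CPM in control iNK, and overlapped (log2 fold change −0.56, SE 0.299, adjusted p = 0.675 in edgeR). Il2ra encodes CD25, the chain that raises the affinity of the receptor for IL-2 and does not take part in binding IL-15 (ENSMUSG00000026770, chromosome 2, 11642807 to 11693193, plus strand). It was low, at 3.52, 7.49, 6.11 and 7.83 CPM in cKO iNK, against 4.53, 5.73 and 11.2 CPM in control iNK, and its estimate of −0.18 (adjusted p = 0.924 in edgeR) became 0.31 in the fit without control iNK replicate 3.

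Markers of B-lineage cells moved with genotype in the same libraries. The 12 B-lineage markers summed to 427 to 610 CPM in cKO iNK, against 77.5 to 92.4 CPM in control iNK, 8 of them rose, and none was at 0 in all libraries of either group. Of 8 erythroid markers, 2 rose, with sums of 78.8 to 616 CPM in cKO iNK, against 9.17 to 47.6 CPM in control iNK. Itgam, which encodes CD11b of the iNK gate, averaged 60.0 CPM in cKO and 119 CPM in control iNK. It was not called (log2 fold change −0.99, adjusted p = 0.0757 in edgeR). The part of these markers in the values of the 8 genes was not tested. In bulk samples, fewer cells that use a gene and less RNA per cell cannot be told apart.

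The comparison of cKO with control iILC1 cells asks the same of the other population. None of the 8 genes passed in edgeR, where 0.0482% of all genes were called, 1221 genes had an unadjusted p below 0.05 and Il2ra was the single one of the 8 among them. DESeq2 also called 0 of the 8. The estimates ran from −0.28 to 0.61 with a median of −0.05, 4 of 8 lay below 0, and the libraries of both genotypes overlapped for all 8, against 5.48% of genes without overlap.

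Cish stood at 59.0, 69.4, 51.9 and 65.2 CPM in cKO iILC1, against 65.5, 53.07 and 104 CPM in control iILC1. Control iILC1 replicate 3 held the highest value and the other libraries overlapped. The log2 fold change was −0.28 with a 95% interval from −0.75 to 0.20 (adjusted p = 0.979 in edgeR), and 0.06 without control iILC1 replicate 3. Socs2 stood at 134, 92.9, 73.5 and 91.1 CPM in cKO iILC1, against 117, 111 and 115 CPM in control iILC1. Its 3 control libraries lay close together (coefficient of variation 2.65%), whereas 1 cKO library lay above and 3 below them. The log2 fold change was −0.23, with a 95% interval from −0.66 to 0.20 (adjusted p = 0.979 in edgeR).

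Il2ra had the largest estimate of the 8 in iILC1, at 54.1, 43.8, 44.06 and 30.8 CPM in cKO, against 29.5, 23.4 and 31.9 CPM in control. Only cKO iILC1 replicate 4 lay within the control range. The log2 fold change was 0.61 (95% interval 0.03 to 1.19, adjusted p = 0.979 in edgeR). Pim1, at 67.1, 52.04, 38.5 and 25.9 CPM in cKO iILC1, against 46.8, 19.7 and 25.6 CPM in control iILC1, spread widely in both groups (0.60, SE 0.31, adjusted p = 0.979 in edgeR). Socs1 ranged from 19.1 to 41.3 CPM in cKO iILC1 and from 25.04 to 45.2 CPM in control iILC1, and Socs3 from 21.1 to 47.8 CPM in cKO iILC1 and from 26.4 to 43.1 CPM in control iILC1. Pim2 ranged from 296 to 481 CPM in cKO iILC1 and from 285 to 446 CPM in control iILC1. Osm ranged from 12.4 to 39.5 CPM in cKO iILC1 and from 12.8 to 22.8 CPM in control iILC1, with cKO iILC1 replicate 1 at 39.5 CPM, and without that library its estimate of 0.20 became −0.28. The 12 B-lineage markers summed to 464 to 680 CPM in cKO iILC1, against 220 to 319 CPM in control iILC1, and 3 of them rose. The 8 T cell markers summed to 90.4 to 142 CPM in cKO iILC1, against 166 to 308 CPM in control iILC1, and 1 of 7 tested, Trac, fell. Itgam averaged 35.3 CPM in cKO and 94.3 CPM in control iILC1 and was called lower (log2 fold change −1.41, adjusted p = 0.0147 in edgeR). The part of these markers in the iILC1 values was not tested.

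**Figure D2:**
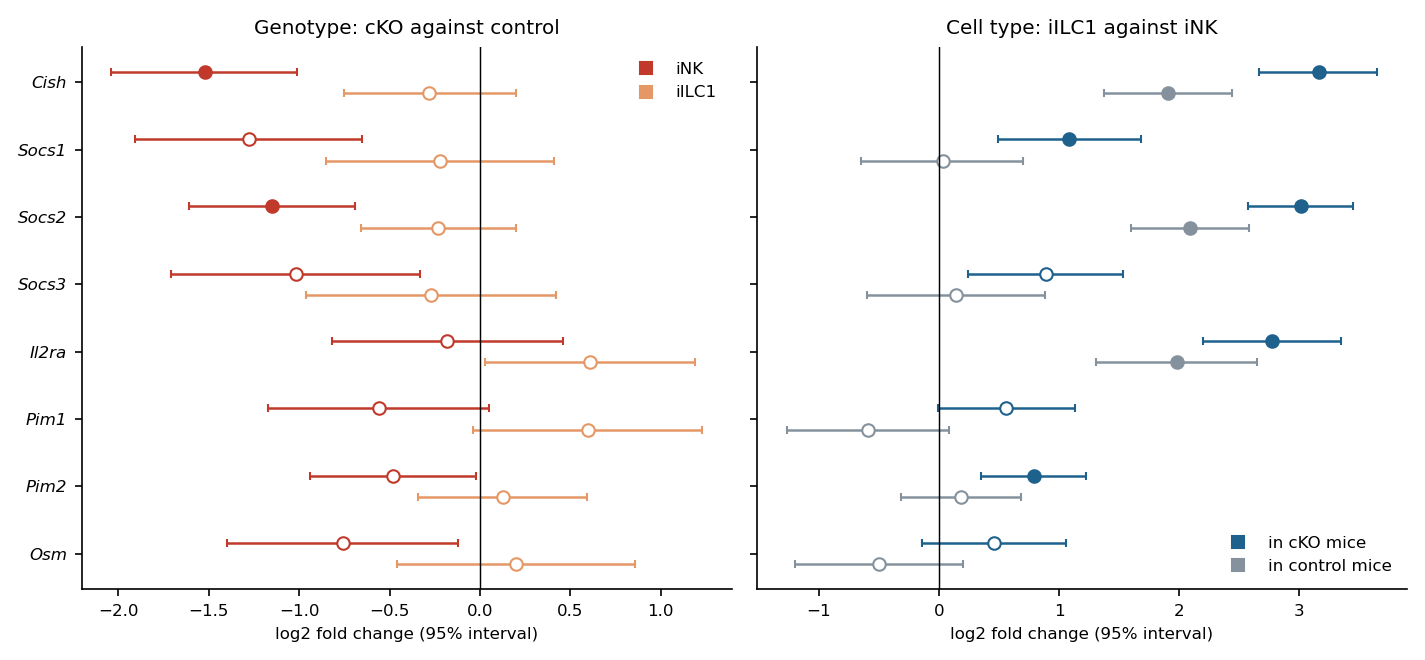
Log2 fold changes (x axes) with 95% intervals from edgeR's quasi-likelihood fit of 14 libraries, for cKO against control in iNK and iILC1 (left) and for iILC1 against iNK in cKO and in control mice (right). Filled points passed an adjusted p of 0.05 over all genes: 2 of 8 for genotype in iNK, 0 of 8 for genotype in iILC1, 5 of 8 for cell type in cKO and 3 of 8 for cell type in control mice.

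Whether the genotype effect differed between the cell types was tested by the interaction, which subtracts the iNK effect from the iILC1 effect. The estimates were above 0 for all 8 genes, from 0.61 to 1.25 with a median of 0.94, against a median of −0.03 for all genes. None of the 8 passed in edgeR, where 0.0778% of all genes were called, 1905 genes had an unadjusted p below 0.05 and 5 of the 8 were among them (Cish, Socs1, Socs2, Pim1 and Osm), and DESeq2 called 0 of the 8. Cish had the smallest p, with an interaction of 1.25 (95% interval 0.54 to 1.95, adjusted p = 0.407 in edgeR) from its effects of −0.28 in iILC1 and −1.52 in iNK. Socs2 had 0.92 (95% interval 0.29 to 1.56, adjusted p = 0.623 in edgeR). The fall of Cish and Socs2 in iNK and the absence of a call in iILC1 are thus not shown to be a difference between the cell types over all genes tested.

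Set against iNK cells, iILC1 cells held far more Cish, Socs2 and Il2ra RNA in mice of either genotype. In cKO mice 5 of the 8 genes were higher in iILC1 (Cish, Socs2, Il2ra, Socs1 and Pim2) and none lower, where 1.74% of all genes were called higher and 3.42% in either direction. In control mice 3 of the 8 were higher (Cish, Socs2 and Il2ra) and none lower, where 0.911% of all genes were called higher and 3.91% in either direction. The cell type and genotype comparisons use the same libraries in other pairings, so these values are not independent of those above.

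Cish averaged 61.4 ± 7.66 CPM in cKO iILC1 and 6.86 ± 0.198 CPM in cKO iNK (SD, n = 4 each), 8.92-fold higher in iILC1 (3.16 on the log2 scale, SE 0.242, adjusted p = 1.92e-10 in edgeR). In control mice it averaged 74.2 ± 26.6 CPM in iILC1 and 19.8 ± 6.5 CPM in iNK (SD, n = 3 each), 3.75-fold higher in iILC1 (1.91, SE 0.262, adjusted p = 2.71e-05 in edgeR). The lowest iILC1 library of either genotype, at 51.9 CPM, lay above the highest iNK library, at 27.2 CPM. Socs2 averaged 97.8 ± 25.5 CPM in cKO iILC1 and 12.2 ± 1.92 CPM in cKO iNK (SD, n = 4 each), 8.06-fold higher in iILC1 (3.01, SE 0.216, adjusted p = 6.38e-11 in edgeR). In control mice it averaged 115 ± 3.04 CPM in iILC1 and 26.9 ± 4.84 CPM in iNK (SD, n = 3 each), 4.25-fold higher in iILC1 (2.09, SE 0.239, adjusted p = 1.34e-06 in edgeR). The iILC1 and iNK libraries did not overlap for either gene.

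Il2ra averaged 43.2 ± 9.58 CPM in cKO iILC1 and 6.24 ± 1.96 CPM in cKO iNK (SD, n = 4 each), 6.84-fold higher in iILC1 (2.77, SE 0.282, adjusted p = 4.27e-08 in edgeR). In control mice it averaged 28.3 ± 4.35 CPM in iILC1 and 7.15 ± 3.55 CPM in iNK (SD, n = 3 each), 3.95-fold higher in iILC1 (1.98, SE 0.327, adjusted p = 0.000334 in edgeR). Its order of groups was thus another than that of Cish and Socs2, with cKO iILC1 highest by mean, though the cKO and control iILC1 libraries overlapped. Cish, Socs2 and Il2ra kept their calls in both comparisons in every fit that left out 1 library, and without the 2 libraries lowest in receptor reads. Those last estimates were 3.17, 2.82 and 2.64 in cKO mice and 1.74, 1.96 and 1.73 in control mice. The T cell markers summed to 90.4 to 142 CPM in cKO iILC1, against 70.2 to 88.5 CPM in cKO iNK, and 2 of 7 tested were higher. In control mice they summed to 166 to 308 CPM in iILC1, against 77.3 to 103 CPM in iNK, and 4 of 7 were higher. Il2ra is also a gene of activated T cells, and the part of such cells in its level was not tested.

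The remaining genes differed less. Socs1 was higher in iILC1 of cKO mice (27.8 ± 9.68 CPM in iILC1 and 13.0 ± 5.9 CPM in iNK, SD, n = 4 each, log2 fold change 1.08, adjusted p = 0.0286 in edgeR), although the libraries overlapped, since cKO iILC1 replicate 3 (19.1 CPM) was below cKO iNK replicate 4 (20.9 CPM). Leaving out cKO iNK replicate 1, 2 or 3 or cKO iILC1 replicate 1 ended this call (adjusted p of up to 0.0994 in edgeR), and leaving out any of the other 4 did not. Pim2 was higher in iILC1 of cKO mice (393 ± 82.1 CPM in iILC1 and 228 ± 37.8 CPM in iNK, SD, n = 4 each, 0.79, adjusted p = 0.0303 in edgeR), without overlap, and lost its call without cKO iNK replicate 1 or cKO iILC1 replicate 3 (adjusted p of 0.118 and 0.09 in edgeR). Without control iNK replicate 1 and cKO iILC1 replicate 1 together, Socs1 and Pim2 had adjusted p-values of 0.108 and 0.0595 in edgeR. In control mice the iILC1 and iNK levels of Socs1 (0.03, 95% interval −0.65 to 0.70) and Pim2 (0.18, 95% interval −0.32 to 0.68) were not called different.

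Socs3 was not called in cKO mice (30.9 ± 12.1 CPM in iILC1 and 16.7 ± 4.04 CPM in iNK, SD, n = 4 each, 0.89, adjusted p = 0.173 in edgeR), but 3 of 7 other settings called it higher, with an adjusted p of 0.0414 to 0.343 over the 7. Pim1 and Osm passed in neither genotype. Osm was the gene whose control iILC1 libraries, at 22.8, 20.9 and 12.8 CPM, all lay below the control iNK libraries (log2 fold change −0.50, adjusted p = 0.401 in edgeR). The number without overlap in control mice was thus 4 of 8, where 25.0% of all genes did not overlap, and in cKO mice it was also 4 of 8 (Cish, Socs2, Il2ra and Pim2), against 6.61% of all genes.

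By mean level, Cish and Socs2 shared 1 order of groups: control iILC1, cKO iILC1, control iNK, cKO iNK. In both genes the iILC1 groups overlapped each other, and each other pair of neighbours was separate. Socs1 and Socs3 were highest in control iILC1 and lowest in cKO iNK, with every pair of neighbours overlapping. Il2ra ran from cKO iILC1 over control iILC1 and control iNK to cKO iNK, and only control iILC1 and control iNK were separate neighbours. Pim2 was lowest in cKO iNK, which did not overlap control iNK, while its other 3 groups overlapped. The groups of Pim1 and of Osm overlapped their neighbours throughout, apart from the separate pairs named above.

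Per kilobase of exon, a scale that allows for unlike exon lengths, Pim2 was the most abundant of the 8 in every group. It stood at 81.6, 114, 141 and 129 CPM per kilobase in cKO iNK, control iNK, cKO iILC1 and control iILC1. This placed it above 98.1% of genes tested in cKO iNK, the lowest of its 4 groups. Socs1 and Pim1 stood at 10.7 and 11.8 CPM per kilobase in cKO iNK, 26.1 and 17.4 in control iNK, 22.8 and 17.4 in cKO iILC1, and 26.5 and 11.6 in control iILC1. Cish stood at 1.07, 3.08, 9.56 and 11.6 CPM per kilobase in cKO iNK, control iNK, cKO iILC1 and control iILC1, and Socs2 at 1.28, 2.83, 10.3 and 12.02. The 1318 receptor genes that lymphocytes should not use had a median of 0.766 and a 95th percentile of 4.43 CPM per kilobase in cKO iNK, and 0.761 and 3.54 in control iNK. The iNK levels of Cish, Socs2 and Il2ra (1.09 in cKO and 1.25 in control iNK) thus lay within the range of these receptor genes in either genotype, whereas in iILC1 all 3 were above the 95th percentile of 4.79 in cKO and 4.84 in control. The exon lengths used were 6419 bases for Cish and 9531 for Socs2, against 1220 for Socs1 and 2891 for Socs3, and a longer exon length lowers a level per kilobase. These lengths join every exon listed for a gene, and for Cish they cover most of the locus. Levels per kilobase of different genes can thus be compared only roughly.

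Likeness of pattern was measured by the root mean square difference of log2 CPM over the 14 libraries, each gene centred on its own mean, among 11111 other genes with at least 10 CPM in a group. The gene most like Cish was Socs2 and the gene most like Socs2 was Cish, at 0.301, where Cish itself varied by 1.41 and Socs2 by 1.37 around their means. Next to Cish came Serpina3f, of a serine protease inhibitor family (0.375), and the adhesion receptor gene Adgrg5 (0.406). Next to Socs2 came Adgrg5 (0.394) and Gbp6, of a family of interferon-induced GTPases (0.415). The step between cell types makes up most of this variation, and the libraries of a group share it.

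**Figure D3:**
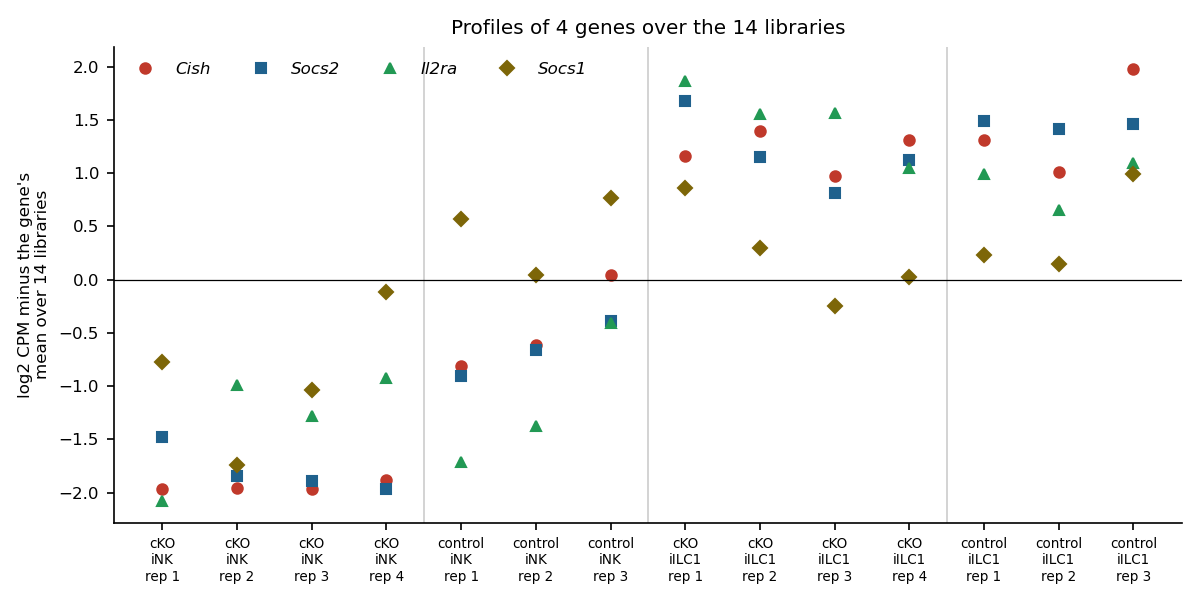
Log2 CPM minus each gene's own mean over 14 libraries (y axis) for Cish, Socs2, Il2ra and Socs1 in every library (x axis, grouped by genotype and cell type). Cish and Socs2, which differ by 0.301 on average (root mean square), lie together in most libraries, and Socs1 has nearly the same mean in control iILC1 (32.3 CPM) and control iNK (31.85 CPM).

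Other genes of the pathway came from 5 lists, which were also chosen with earlier results of these data known. Counts and medians of these lists set beside those of all genes are thus descriptions and no test. In iNK, 0.252% of all genes were called lower in cKO and 0.408% in either direction, and the median of all genes was 0.06. Of 22 other STAT5 targets, 17 had estimates below 0 in cKO iNK. The estimates ran from −2.65 to 2.07 on the log2 scale, with a median of −0.55. The highest was that of Lta, for lymphotoxin alpha (5.27 CPM in cKO and 1.23 CPM in control iNK by mean). Lta was not called (adjusted p = 0.087 in edgeR), though every cKO library lay above every control library. Of the 22, none was called higher and 5 were called lower. They were Gzmb, for the killer protease granzyme B (21.5 ± 5.69 CPM in cKO, SD, n = 4, and 135 ± 20.2 CPM in control, SD, n = 3, adjusted p = 5.57e-08 in edgeR), the amino acid transporter gene Slc7a5 (−1.52, adjusted p = 0.000815 in edgeR), the survival gene Bcl2l1 (−1.19, adjusted p = 0.00749 in edgeR), the interferon gamma gene Ifng (−1.63, adjusted p = 0.0283 in edgeR) and Tnfrsf9, for the costimulatory receptor CD137 (−1.10, adjusted p = 0.0422 in edgeR). Leaving out any 1 iNK library ended the call of Tnfrsf9, and each but control iNK replicate 3 and cKO iNK replicate 4 ended that of Ifng. Bcl2l1 lost its call when control iNK replicate 1 was left out, and also when cKO iNK replicate 3 was. Pim3, the third Pim kinase, was not called (34.4 ± 5.99 CPM in cKO, SD, n = 4, and 48.3 ± 4.78 CPM in control, SD, n = 3, log2 fold change −0.49, adjusted p = 0.593 in edgeR). In iILC1, where 0.0482% of all genes were called, Gzmb was the only called member of the 22 (−1.41, adjusted p = 0.00807 in edgeR, and 0.411 without control iILC1 replicate 3). The list's median there was 0.03.

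Few genes of the upstream pathway were called for genotype, and of all genes only 0.408% were called in iNK and 0.0482% in iILC1. An absence of calls in lists of this size thus does not set them apart from all genes. Of 16 other negative regulators (Socs4 to Socs7, phosphatases, Pias genes and others) and 11 JAK kinase and STAT genes, none passed for genotype in either cell type in edgeR. Their estimates in iNK ran from −0.44 to 0.37 and from −0.27 to 0.23. Stat5a averaged 89.8 ± 8.56 CPM in cKO and 82.03 ± 15.5 CPM in control iNK (SD, n = 4 and 3), with a 95% interval of the log2 fold change from −0.32 to 0.58, and Stat5b 189 ± 25.8 CPM in cKO and 178 ± 49.6 CPM in control iNK, with an interval from −0.36 to 0.53. The receptor chains Il2rb (−0.41, 95% interval −0.97 to 0.16), Il2rg (−0.33, −0.81 to 0.15) and Il15ra (−0.03, −0.45 to 0.38) were not called in iNK. Of 12 receptor chains, Il7r rose in cKO iNK (1.42, adjusted p = 0.00667 in edgeR), a call lost without control iNK replicate 1 or 2. None of 8 tested cytokine ligand genes of 10 listed passed for genotype.

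Between the cell types, the other STAT5 targets were called in both directions. Of the 22 in cKO mice, 6 were higher and 2 lower in iILC1, where 1.74% of all genes were called higher and 3.42% in either direction. Of these 22 estimates, 9 lay below 0 and the median was 0.02. Ifng (2.21), Tnfrsf9 (1.23) and Bcl2l1 (1.1) were among the higher, and Tfrc, for the transferrin receptor (−1.16), among the lower, each called in every leave-out. In control mice 2 of the 22 were higher and 3 lower, where 0.911% of all genes were called higher and 3.91% in either direction. There, 15 estimates lay below 0 and the median was −0.31. The higher ones were Lta, for lymphotoxin alpha (2.95), and Ikzf2, for the transcription factor Helios (1.19). The lower ones were Gzmb (−1.41), Prf1, for perforin (−1.44), and Tfrc (−0.84), which lost its call in all 6 leave-outs and was named after its values were seen.

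Among the JAK kinases in cKO mice, Jak1 was lower in iILC1 (−1.05, adjusted p = 0.0206 in edgeR). It lost this call without cKO iNK replicate 1 or 3 and without cKO iILC1 replicate 2 or 3 (adjusted p of up to 0.0811 in edgeR). Jak2, named after its values were seen, was higher in iILC1 of cKO mice (0.99, adjusted p = 0.00608 in edgeR). None of the 11 JAK kinase and STAT genes passed in control mice, where Jak1 stood at −1.04 (adjusted p = 0.0559 in edgeR), but 2 passed without control iNK replicate 3 and 1 without control iILC1 replicate 1. Among all genes, 3.42% were called in cKO and 3.91% in control mice, and none of the 16 other negative regulators passed in either genotype. Over fits that left out 1 library, 0 to 1 of these 16 passed in cKO mice and 0 in control mice. Of their estimates, 14 of 16 lay below 0 in cKO and in control mice, against 0 and 2 of the 8 feedback and target genes and 49.1% and 42.6% of all genes. Among the cytokine ligands, Tnf was higher in iILC1 in both genotypes (15.2 ± 4.43 CPM in cKO iILC1 and 2.78 ± 1.22 CPM in cKO iNK, SD, n = 4 each, log2 fold change 2.47, adjusted p = 6.97e-06 in edgeR).

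**Figure D4:**
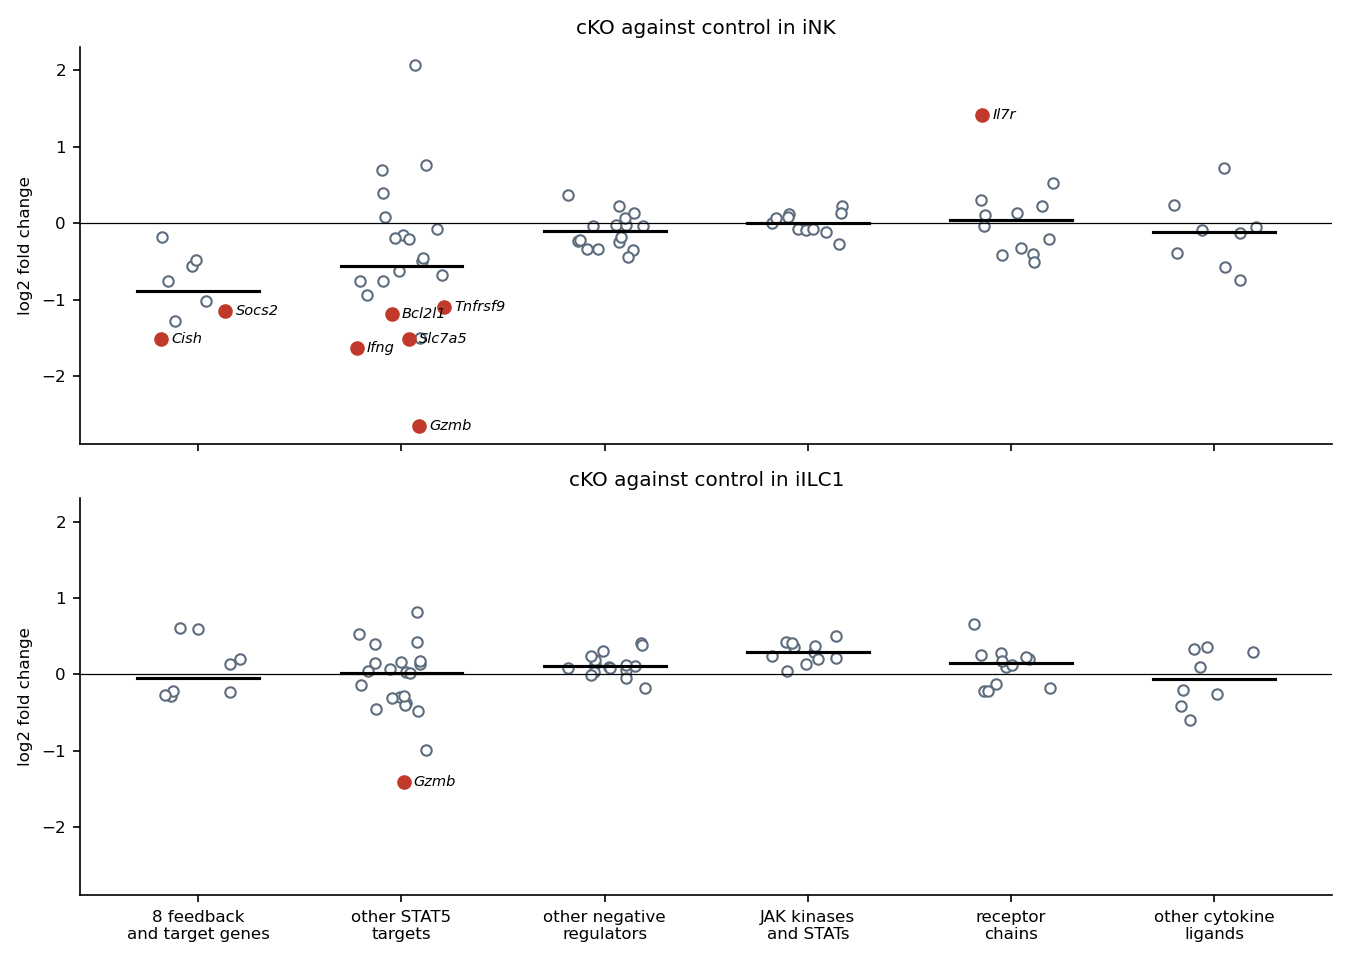
Log2 fold change for cKO against control (y axes) in iNK (top) and iILC1 (bottom) of the 8 genes and of 5 pathway lists, 1 point per gene tested. Filled, named points passed an adjusted p of 0.05 over all genes. Bars are list medians, which in iNK are −0.89 for the 8 genes, −0.55 for other STAT5 targets and 0.01 for JAK kinases and STATs. The genes and lists were chosen with earlier results of these data known, so the medians are descriptions and no test.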

How the data were processed

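The deposited table gives the authors' raw read counts for 46078 Ensembl genes, per the file headers, and 45143 identifiers matched a symbol. Libraries came from a SMART-Seq v4 kit and 1 ng of cDNA in Nextera XT, per the labels' protocols, and neither kit marks strand. The submitters' processing notes name build mm10 and Trimmomatic 0.33, HISAT2 2.1.0, Subread 1.6.5 and its featureCounts. Annotation release, strand setting and treatment of reads with several matches are not given in the sources used here. Exons of Cish overlap the antisense genes Gm17040 and Gm17041, and those of Pim1 overlap Gm26885, so reads of these pairs cannot be told apart.

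Genes were kept by filterByExpr (minimum count 10, minimum total 15), which left 26990. A single edgeR 4.0.16 fit (R 4.3.3, TMM factors) held the 14 libraries with a mean per group, 10 residual degrees of freedom and a common coefficient of biological variation of 30%. Its quasi-likelihood F test gave p-values, adjusted by Benjamini-Hochberg over all genes of a comparison, and SEs come from the F statistic. The code was tested on simulated data. Alternatives were DESeq2 1.42.0, RLE factors, other filters, the replicate number as a block, a covariate for reads on odour and pheromone receptor genes, compared groups only, leaving out the 2 libraries lowest in such reads, and leaving out each library. Within each group, all pairs of libraries differed beyond counting noise (chi-square over degrees of freedom between 4.97 and 27.1).

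Named pathway genes were those called in a comparison, at most 6 by smallest p, with 8 receptor, kinase, STAT and Pim genes. Genes of like pattern were named for members called for genotype, without predicted genes. Marker genes were outside that rule. The 8 genes and all lists were chosen with earlier results of these data known.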

Additional observations from a re-analysis of the deposited data

Results flagged for a closer look

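Cish in cKO iNK replicate 4 was at 7.15 CPM, against 6.73 to 6.79 CPM in the other 3 cKO iNK libraries. The gap to its neighbour is wide only against the narrow range of this group, and chance gives such a gap in about 1 of 20 groups.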

How the results depend on the processing

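The number of the 8 genes called for genotype in iNK was 2 as reported and 3 under the 7 alternatives that kept all libraries, and it was 1 to 3 over the leave-outs of 1 library. The value of 1 came from leaving out replicate 3 of control iNK or replicate 3 of cKO iNK. In iILC1 it was 0 under each of these. The interaction called 0 throughout. For iILC1 against iNK, 3 were called in control mice under every alternative and leave-out. In cKO mice 5 or 6 were called with all libraries, 3 to 5 over the leave-outs (3 when cKO iNK replicate 1 was left out), and 3 when the 2 libraries lowest in receptor reads were left out together. No estimate past the threshold changed sign. Among the others, Socs1 in control iILC1 against iNK was −0.01 with DESeq2, −0.01 with RLE factors, 0 with no filter, and −0.31 to 0.18 over leave-outs. With the receptor covariate, Osm was −0.05 for genotype in iILC1, and Pim1 and Osm were 0.02 and 0 for cell type in control mice. Without those 2 libraries, Osm was −0.28 for genotype in iILC1 and −0.03 for cell type in cKO mice, and Socs3 was −0.05 for cell type in control mice. Over leave-outs, genotype estimates in iILC1 were −0.47 to 0.06 for Cish, −0.48 to 0.12 for Socs1, −0.01 to 0.32 for Pim2 and −0.28 to 0.36 for Osm. That of Il2ra in iNK was −0.41 to 0.31, and the Socs3 interaction was −0.05 to 1.09. For cell type in control mice, Socs3 was −0.22 to 0.95 and Pim2 −0.02 to 0.32. The cause was not tested. Whether replicate numbers pair the libraries could not be settled from these values, and the fit reported has no block for them. Of 19 same-numbered pairs, 9 had correlated deviations over 0.1 (range −0.0918 to 0.389). Of 38 checks, 17 matched a library best with its own number. With the number as a block, 3 of the 8 genes were called for genotype in iNK, with Socs1 past the threshold at −1.42, and 175 genes in all. Over all genes, 110 were called for genotype in iNK (63 to 382 over all alternatives and leave-outs, 27.2% to 55.2% of them higher, against 38.2% in the fit reported), 13 in iILC1 (4 to 50), 21 by the interaction (10 to 56), 1056 for cell type in control mice (394 to 2212) and 923 in cKO mice (713 to 1659). The interaction has no fit with compared groups only, since it uses all 4. Low counts limit Cish and Il2ra most: in cKO iNK libraries they had 44 to 84 and 23 to 92 reads.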
